A study of Danio rerio with 4 samples.

Results

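Integrins and the proteins that join them to the actin skeleton were examined in cells sorted from zebrafish embryos of 14 to 16 somites. Genes were taken when their symbol began with itga, itgb, tln, fermt, parva, parvb, pxn, vcl, ilk, lims1, zyx or ptk2. Of 25873 gene IDs, 60 carried such a symbol, and 56 of these had at least 10 counts in at least 2 of the 4 libraries. The 56 comprised 19 alpha subunits, 11 beta subunits and 21 intracellular focal adhesion genes. The other 5 matched by the start of their symbol but were counted neither as subunits nor as focal adhesion genes: ITGB1BP1, itgb3bp, ITGBL1, ILKAP and TLNRD1. The 4 IDs under the count limit were itga2b, itgae.2, itgam.2 and the second ITGB3 ID (ENSDARG00000056767), with 0 to 11 counts in any library.

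All embryos carried Tg(nkx2.5:ZsYellow), a transgene in which nkx2.5 regulatory sequence drives a yellow fluorescent protein, in a laboratory strain not named further. Cells with ZsYellow, labelled as cardiopharyngeal progenitors and cardiomyocytes, formed the positive group (2 libraries), and ZsYellow-negative cells from the same embryos the negative group (2 libraries). The negative group is a mixture of every other tissue, and the number of embryos per library is not given in the labels. Library totals ran from 31996733 to 40133331 counts. NKX2-5 itself had 13259 and 20181 counts in the positive and 207 and 195 in the negative libraries. All 6 cardiomyocyte markers tested were higher in positive cells, and all 6 somite and all 6 erythroid markers were lower. At an adjusted p under 0.05 by edgeR, 6 of 7 endothelial and all 4 myeloid markers tested were also higher. Of the neural markers 7 of 8 were lower, but of the epidermal markers only 1 of 6. None of these markers was absent from both positive libraries.

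An integrin is a membrane receptor of an alpha and a beta subunit that holds the cell to matrix proteins such as fibronectin, laminin and collagen, or to other cells. Talin and kindlin bind the tail of the beta subunit and switch the receptor on. The complex of ILK, PINCH and parvin, together with vinculin, paxillin and zyxin, links it to actin, and focal adhesion kinase signals from it. In zebrafish, fibronectin is needed for the heart primordia to migrate to the midline, and integrin alpha5 for shaping the pharyngeal pouches.

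The comparison asked which of these genes distinguish sorted nkx2.5 reporter cells from the remaining cells of the embryo. Laminin receptor gene ITGA3, beta subunit gene ITGB3, the RGD receptor gene ITGA8 and ITGA4 were 3.02 to 6.96 times higher in positive cells. The intracellular genes PTK2, FERMT3 (ENSDARG00000030938) and VCL (ENSDARG00000098695) were 3.02 to 3.13 times higher. Of these, FERMT3 rested on 12 to 85 counts per library, with an adjusted p of 0.0495 by edgeR. The collagen receptor gene ITGA11 (ENSDARG00000036086), PARVB and ITGB6 were 3.29 to 7.97 times lower. Calls were made where the adjusted p was under 0.05 in edgeR's quasi-likelihood test over all 19084 genes tested. By that rule 14 members were called higher and 6 lower, and 36 were not called. The called share was 35.7% of the members, against 17.1% of all genes tested. For higher calls the shares were 25% and 9.02%, and for lower calls 10.7% and 8.07%. Calls with an at least 2-fold change were 9 higher and 4 lower among the 56 members. Over all 19084 genes they were 1311 (6.87%) and 1289 (6.75%), so the lower share of members was close to that of all genes. The median log2 fold change was 0.211 over the members and -0.00866 over all genes tested. The positive and negative libraries did not overlap for 39 members, or 69.6%, against 58.3% of all genes. All 20 calls were of integrin subunits or focal adhesion genes. None of the other 5 genes was called, but where 17.1% of all genes were called, 5 genes are too few to show a contrast. The role groups below hold 2 to 7 genes each, so their numbers of calls are description only.

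**Figure D1:**
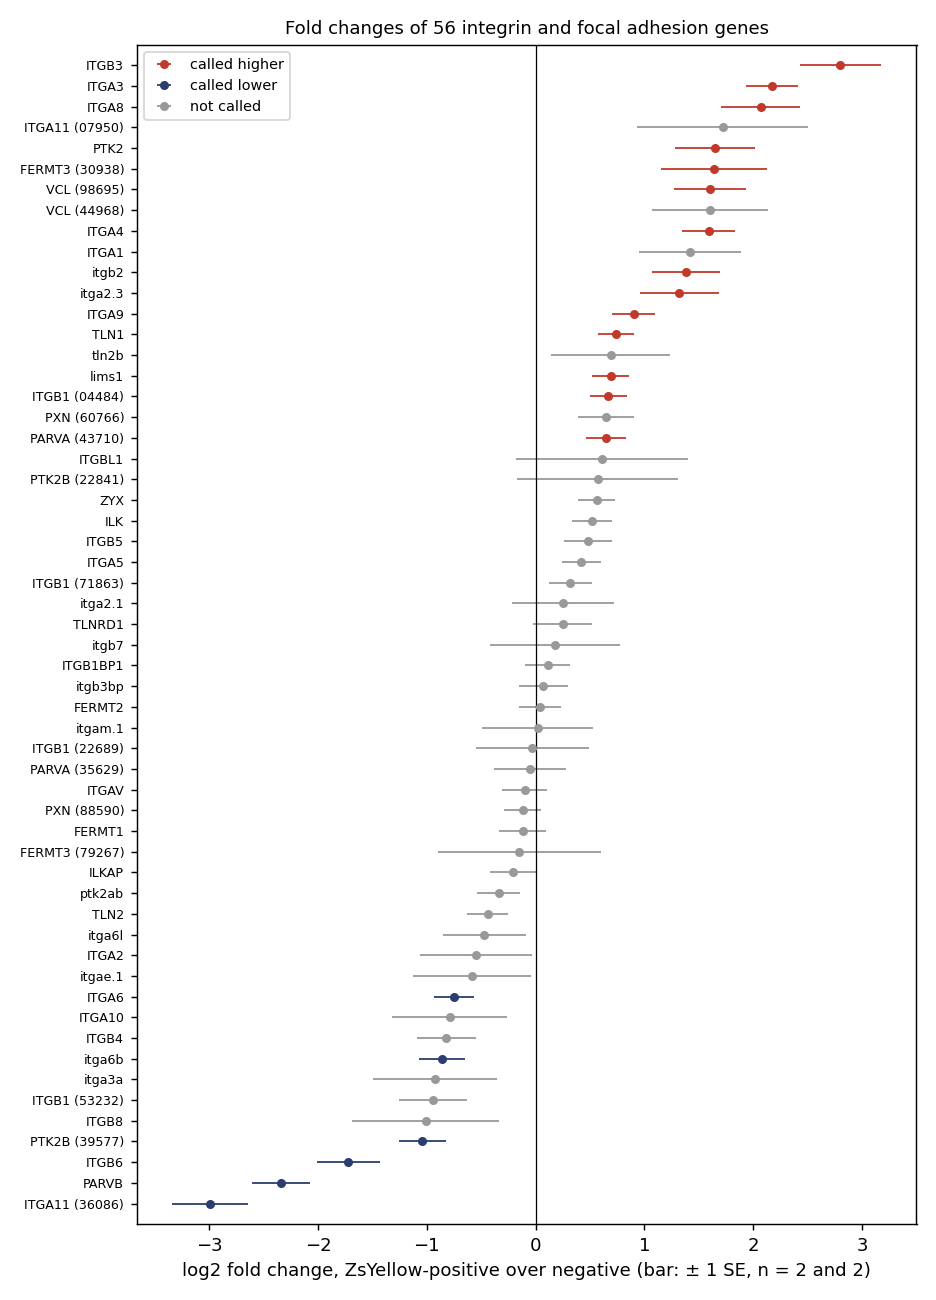
Log2 fold change of each of the 56 genes, positive over negative libraries (x axis; bars are ± 1 SE, n = 2 and 2), with red and blue for genes called higher and lower and grey for genes not called. Where a name belongs to several IDs, the last 5 digits of the ID are added. ITGB3 at 2.80 and ITGA11 (36086) at -2.99 mark the ends, and the 36 grey genes lie between 1.72 and -1.01.

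Fewer calls were made when a negative library was left out, among members and over all genes. Without negative replicate 1, 8 members (14.3%) were called higher and 3 (5.36%) lower, against 4.83% and 3.80% of all genes. Without negative replicate 2, 3 members (5.36%) were higher and 4 (7.14%) lower, against 4.31% and 3.90% of all genes, so that the share of higher calls was then close to the background. Over all genes the calls dropped from 3262 to 1697 and 1623 in these fits. In these fits the lone negative library is assumed to vary like the positive pair. Log2 CPM correlated at 0.986 between positive and at 0.991 between negative replicates. The drop thus does not show that the negative libraries vary more. The calls of ITGA8, PTK2, FERMT3 (ENSDARG00000030938) and VCL (ENSDARG00000098695) were each lost in at least 1 alternative fit. ITGA3, ITGB3, ITGA4, ITGA11 (ENSDARG00000036086), PARVB and ITGB6 were called in the same direction in each of the 12 alternative fits. On log2(TPM + 1), where the added 1 understates the changes of low genes, their log2 fold changes and those of other low members shrank, to 1.28 for ITGB3, -1.47 for ITGA11, -1.0 for ITGB6, 1.2 for ITGA8 and 0.81 for itgb2. These are bulk libraries, so more cells expressing a gene and more RNA per cell cannot be told apart.

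Beta1, the partner of most alpha subunits, dominated the beta subunit transcripts. Levels between genes are compared here as TPM, an abundance scaled for transcript length. The ITGB1 ID ENSDARG00000104484 was at 138.5 and 173.7 TPM in the positive libraries and at 106.4 and 91.7 TPM in the negative libraries. It supplied 87.1% and 86.1% of the summed beta subunit TPM in positive cells and 81.2% and 83.9% in negative cells. Its expression in CPM, counts scaled to a common library size, was 178.6 ± 17.7 in positive and 112.0 ± 1.93 in negative cells (SD, n = 2 each). The groups did not overlap. The log2 fold change was 0.67 (SE 0.170, adjusted p 0.0258 by edgeR). This call was lost without positive replicate 2 (0.57), negative replicate 1 (0.69) or negative replicate 2 (0.67), and on log2(TPM + 1) (0.65).

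The other 3 IDs named ITGB1 were not called. The ID ENSDARG00000071863 had 1089 and 1660 counts in positive and 1253 and 917 in negative libraries, with a log2 fold change of 0.32 (SE 0.197, adjusted p 0.324 by edgeR). ENSDARG00000053232 had 2.66 and 2.80 CPM in positive libraries against 6.47 and 4.05 CPM in negative libraries. The difference of -0.94 on the log2 scale (SE 0.313, adjusted p 0.0726 by edgeR) was not called, but became a call at -1.04 with upper-quartile scaling and at -0.98 without positive replicate 2. ENSDARG00000022689 had 14 to 38 counts per library and overlapping groups. In all, 17 of the 56 IDs share their name with another ID, so counting may have divided reads of similar paralogs between them, and the names do not say which zebrafish paralog each is.

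**Figure D2:**
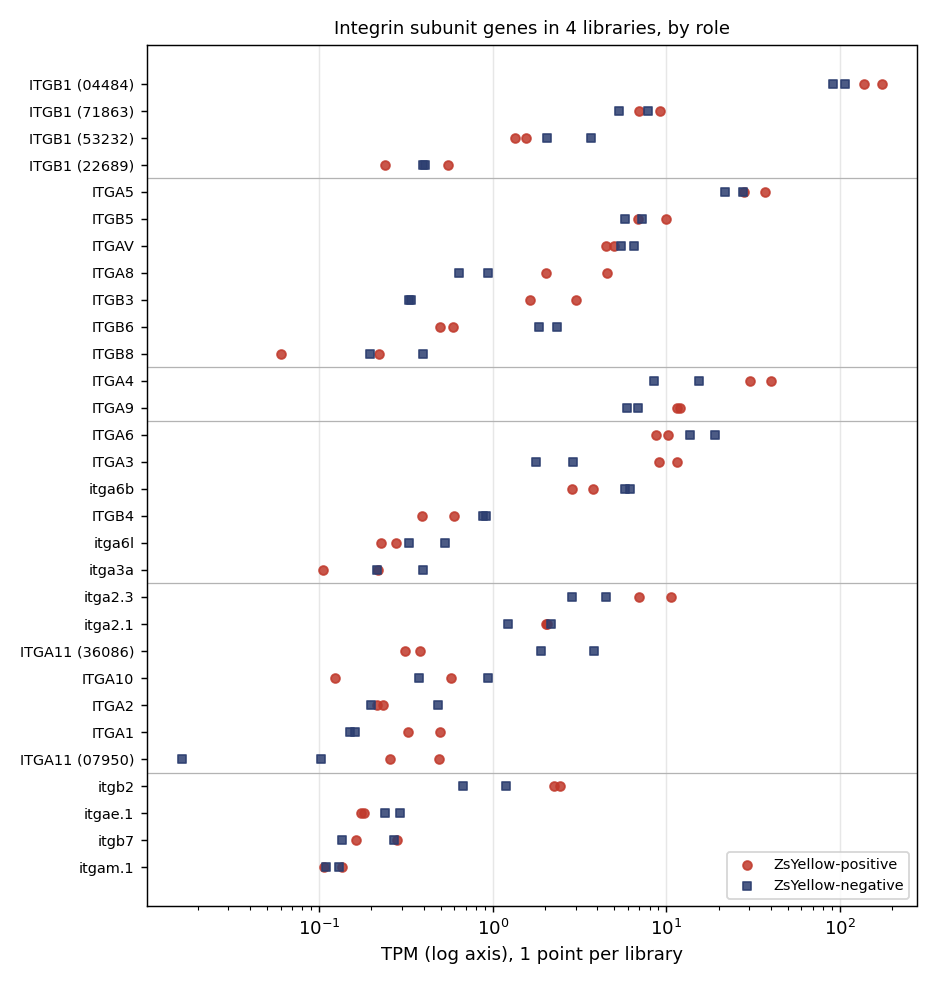
TPM of the 30 integrin subunit genes on a log axis, with 1 point per library (red circles positive, blue squares negative), in blocks for beta1, RGD receptor, alpha4 and alpha9, laminin receptor, collagen receptor and blood cell subunits from top to bottom. The digits in brackets end the gene ID. ITGB1 (04484) lies from 91.7 to 173.7 TPM, above every other subunit, and red and blue separate widely for ITGB3, ITGA3 and ITGA11 (36086).

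Among the 7 subunits of receptors for fibronectin and other RGD-bearing ligands, 2 were called higher and 1 lower. ITGB3 (ENSDARG00000045070), the beta3 subunit that pairs with alpha v in many cells, had 123 and 261 counts in positive libraries and 26 and 27 in negative libraries. That is 3.95 and 6.64 CPM against 0.722 and 0.799 CPM, with no overlap. The log2 fold change was 2.80 (SE 0.374, adjusted p 0.00108 by edgeR). The other ITGB3 ID had at most 10 counts in a library and was not tested.

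ITGA8, whose protein binds nephronectin in the mouse kidney, had 7.74 and 15.9 CPM in positive and 3.19 and 2.43 CPM in negative libraries. Positive replicate 2 was the highest, and both positive libraries stood above the negative ones. The log2 fold change of ITGA8 was 2.07 (SE 0.363, adjusted p 0.00459 by edgeR), or 1.46 without positive replicate 2, and the call was lost without negative replicate 2 (1.90). ITGB6, an alpha v partner typical of epithelia in mammals, had 1.51 and 1.60 CPM in positive libraries and 5.41 and 4.85 CPM in negative ones. On the log2 scale ITGB6 differed by -1.72 (SE 0.291, adjusted p 0.00381 by edgeR).

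The classical fibronectin receptor gene ITGA5 was the most abundant of the RGD group at a mean of 28.6 TPM and was not called. It had 125.9 and 153.0 CPM in positive and 111.0 and 98.2 CPM in negative libraries. The groups did not overlap, but the log2 fold change of 0.42 had an SE of 0.180 and an adjusted p of 0.158 by edgeR. ITGB5 (0.48) and ITGAV (-0.10) were not called either, with adjusted p-values by edgeR of 0.184 and 0.792. ITGB5 was called without positive replicate 1 (0.71). ITGB8 had 4 to 27 counts, too few to resolve a change.

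Both members of the alpha4 and alpha9 pair, receptors for fibronectin variants, tenascin and cell surface ligands such as VCAM1, were called higher. ITGA4 had 83.7 and 99.5 CPM in positive libraries and 37.4 and 23.2 CPM in negative libraries. Positive libraries were well apart from negative ones, and the log2 fold change was 1.59 (SE 0.241, adjusted p 0.00212 by edgeR). ITGA9 had 27.3 and 24.8 CPM against 12.9 and 14.9 CPM, a log2 fold change of 0.90 (SE 0.194, adjusted p 0.0125 by edgeR). The ITGA9 call was lost without negative replicate 1 (0.80) or negative replicate 2 (1.02), and on log2(TPM + 1) (0.79).

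Laminin receptor subunits went in different directions, with 1 of 6 called higher and 2 lower. ITGA3 had 26.3 and 30.9 CPM in positive and 7.50 and 5.21 CPM in negative libraries. Its log2 fold change was 2.17 (SE 0.241, adjusted p 0.000407 by edgeR). The ID named itga3a did not share this level: it had 10 to 41 counts per library and overlapping groups. ITGA6, the main alpha partner of beta4 in epithelia, had 29.1 and 31.5 CPM in positive and 56.7 and 45.5 CPM in negative libraries. The ITGA6 log2 fold change was -0.75 (SE 0.183, adjusted p 0.0216 by edgeR). The paralog itga6b had 9.25 and 10.8 CPM against 17.0 and 19.4 CPM, a difference of -0.86 on the log2 scale (SE 0.210, adjusted p 0.0222 by edgeR).

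The calls of ITGA6 and itga6b were both lost without negative replicate 1 (-0.59 and -0.95), without negative replicate 2 (-0.89 and -0.75) and on log2(TPM + 1) (-0.71 and -0.70). ITGB4, the hemidesmosome subunit, had 2.95 and 2.72 CPM in positive and 5.11 and 4.94 CPM in negative libraries. Its groups did not overlap, and it was not called (log2 fold change -0.82, SE 0.269, adjusted p 0.0689 by edgeR), although it was with upper-quartile scaling (-0.92). Epidermal markers stood at summed levels of 808.1 to 1207.7 CPM in positive and 1703.6 to 2101.2 CPM in negative libraries, with 1 of 6 called lower and none of the 6 absent from the positive libraries. Most of each sum was krt4, the marker called, at 808.3 and 514.6 CPM in positive and 1628 and 1242.3 CPM in negative libraries. The other 5 epidermal markers were not called, with log2 fold changes from -0.22 (TP63) to -0.65 (krt17). Groups overlapped for krt5, cldne and krt17. The part of epidermal cells in the lower ITGB6, ITGA6 and ITGB4 values was not tested.

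Of the 7 collagen receptor subunits, 1 was called in each direction. ITGA11 (ENSDARG00000036086) had 39 and 55 counts in positive libraries and 491 and 256 in negative libraries, or 1.25 and 1.40 CPM against 13.6 and 7.57 CPM. Its log2 fold change of -2.99 (SE 0.348, adjusted p 0.000513 by edgeR) was the lowest of all members. Somite and presomitic markers were also lower in positive cells, at summed levels of 138.3 and 106.8 CPM against 1162.6 and 1220.4 CPM, with 6 of 6 called. Also called lower were 7 of 8 neural, 6 of 6 erythroid and 5 of 5 pronephros markers. So were 4 of 5 notochord and 2 of 2 hatching gland markers. Higher calls were made for 6 of 6 cardiomyocyte, 6 of 7 endothelial and 4 of 4 myeloid markers. The part of somite cells or of any other tissue in the ITGA11 value was not tested. The second ITGA11 ID (ENSDARG00000007950) pointed the other way at 2 to 29 counts, with a log2 fold change of 1.72 (SE 0.786, adjusted p 0.181 by edgeR), and was called only by limma on log2(TPM + 0.1) (1.58, adjusted p 0.0432).

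The subunit itga2.3 had 8.99 and 5.39 CPM in positive and 2.11 and 3.64 CPM in negative libraries. Per length it averaged 6.26 TPM over the 4 libraries, close to the 6.31 TPM of ITGA3. In CPM, ITGA3 had means of 28.6 in positive and 6.35 in negative cells, against 7.19 and 2.87 for itga2.3. The similar TPM thus rests on a shorter transcript length for itga2.3, and whether its gene model is complete was not tested. The log2 fold change was 1.32 (SE 0.361, adjusted p 0.0357 by edgeR), and the call was lost without negative replicate 1 (0.98) or negative replicate 2 (1.77). Its neighbour in name itga2.1 was not called, with 36 and 41 counts against 22 and 42 (log2 fold change 0.25, SE 0.467, adjusted p 0.776 by edgeR). ITGA1 had 30 and 53 counts against 15 and 15, with a log2 fold change of 1.42 (SE 0.468, adjusted p 0.0708 by edgeR). ITGA2 and ITGA10 had overlapping groups. ITGA10 became a call only without positive replicate 2 (-1.87).

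Of the blood cell subunits, itgb2, the shared beta subunit of leukocyte integrins, was called higher. It had 220 and 233 counts in positive and 110 and 65 in negative libraries, and its log2 fold change was 1.38 (SE 0.310, adjusted p 0.0154 by edgeR), or 1.1 and not called without negative replicate 2. Of its leukocyte alpha partners, itgam.1 and itgam.2 were near the count limit, with 14 to 21 and 2 to 11 counts. No ID matched the partners itgal or itgax, so these were not examined. The subunits itgb7, itgae.1 and itgam.1 were not called. The most abundant by TPM of these, itgae.1, had 11 and 14 counts against 16 and 21 (log2 fold change -0.58, SE 0.542, adjusted p 0.533 by edgeR). The platelet and thrombocyte subunit gene itga2b had 0 to 6 counts.

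Myeloid markers moved with itgb2: all 4 tested (SPI1, CEBPA, LCP1 and CORO1A) were called higher, at summed levels of 675.9 and 850.2 CPM in positive and 367.4 and 330.9 CPM in negative libraries. Most of each sum was CEBPA (397.3 and 567.9 against 234.2 and 193.3 CPM) and SPI1 (241.7 and 242.6 against 114.3 and 130.2 CPM). LCP1 had 31.8 and 35.8 against 17.2 and 6.54 CPM, and CORO1A 5.1 and 3.87 against 1.61 and 0.887 CPM. No ID matched the marker mpx. The later markers lyz and csf1ra had 0 to 9 counts and were not tested. Endothelial markers were also higher, with 6 of 7 called and summed levels of 1231.1 and 1634.0 CPM against 718.2 and 641.2 CPM. The exception was etsrp, a large part of the negative sums, at 290 and 330.4 CPM in positive and 332.1 and 329.9 CPM in negative libraries. It had overlapping groups and was not called (log2 fold change -0.09, adjusted p 0.773 by edgeR). The part of myeloid and endothelial cells in itgb2 and in the other integrins called higher was not tested.

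ITGA4 took a larger and ITGA6 a smaller share of the alpha subunit transcripts in both positive libraries than in either negative one. Summed alpha subunit TPM was 113.0 and 135.1 in positive and 93.9 and 76.0 in negative libraries. ITGA4 supplied 27.0% and 29.6% of it in positive and 16.5% and 11.2% in negative cells. ITGA6 supplied 7.69% and 7.58% in positive and 20.2% and 17.9% in negative cells. The share of ITGA5 was 24.9% and 27.4% against 29.2% and 28.6%. None of these 3 shares overlapped between groups, and the ITGA5 difference was the smallest of them. A lack of overlap is common with 2 libraries per group: 58.3% of all genes tested showed it for expression. The TPM of ITGA5 itself was higher in positive libraries (28.1 and 37) than in negative ones (27.5 and 21.7). Its share was lower there because the summed alpha subunit TPM was larger. For ITGA3 the share was 7.99% and 8.55% in positive and 3.08% and 2.35% in negative cells. An exact permutation test of 2 against 2 libraries cannot give a two-sided p below 0.333, so these shares are given without a test.

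**Figure D3:**
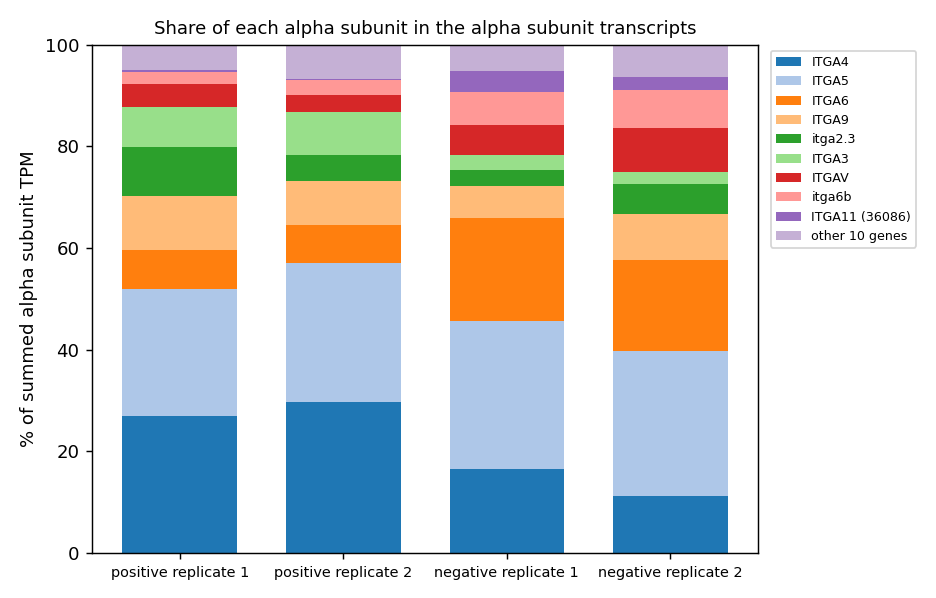
Share of each alpha subunit gene in the summed alpha subunit TPM of a library (y axis, percent), with 1 bar per library, 9 genes drawn singly and the other 10 together. ITGA4 and ITGA5 together fill the lower part of each bar, and the orange ITGA6 block is thinner in the positive libraries (7.69% and 7.58%) than in the negative ones (20.2% and 17.9%).

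Of the talins and kindlins, which bind the beta tail and activate the receptor, 2 of 7 were called higher and none lower. With 9.02% of all genes called higher and 8.07% lower, the lack of lower calls among 7 genes shows no contrast. TLN1, the widely expressed talin, had 123.6 and 119.5 CPM in positive and 73.7 and 71.5 CPM in negative libraries. Its replicates lay close together, and its log2 fold change was 0.74 (SE 0.162, adjusted p 0.0134 by edgeR). TLN2 had 15.1 and 14.6 CPM in positive libraries and 21.0 and 19.2 CPM in negative libraries, without overlap but also without a call (log2 fold change -0.44, SE 0.191, adjusted p 0.159 by edgeR). The TLN1 call was lost without negative replicate 1 (0.76) or negative replicate 2 (0.73), and on log2(TPM + 1) (0.67).

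The kindlin genes FERMT1 and FERMT2 were the most abundant of the activators by TPM, at means of 53.0 and 42.1. In CPM, TLN1 was the highest, with means of 121.6 in positive and 72.6 in negative cells. The TPM ranking thus rests on shorter transcript lengths for these kindlins, and whether their gene models are complete was not tested. FERMT1 had 42.4 and 27.9 CPM in positive libraries, on either side of the negative values of 38.0 and 38.5 CPM (log2 fold change -0.12, SE 0.218, adjusted p 0.762 by edgeR). FERMT2 had 41.3 and 54.8 CPM against 44.2 and 48.9 CPM (log2 fold change 0.04, SE 0.191, adjusted p 0.908 by edgeR). FERMT3 (ENSDARG00000030938), the kindlin of blood cells in mammals, had 51 and 85 counts in positive libraries and 31 and 12 in negative ones. Its log2 fold change of 1.64 (SE 0.485, adjusted p 0.0495 by edgeR) was at the edge of the threshold, and the call was lost without positive replicate 2 (1.42), without negative replicate 2 (1.15), with upper-quartile scaling (1.54) and on log2(TPM + 1) (0.58). The myeloid markers given above moved in the same direction as FERMT3, but other blood cell markers did not. Of 4 thrombocyte markers tested, 1 was called higher and 2 lower, and all 6 erythroid markers were called lower. The part of blood cells in the FERMT3 value was not tested.

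Within the complex of ILK, PINCH and parvin, PARVB was called lower, and lims1 and 1 of the 2 PARVA IDs were called higher. The PINCH gene lims1 was the most abundant intracellular member, with 280.6 and 289.8 CPM in positive and 170.4 and 182.6 CPM in negative libraries. The lims1 log2 fold change was 0.69 (SE 0.167, adjusted p 0.0213 by edgeR), and the call was lost without negative replicate 1 (0.64) or negative replicate 2 (0.75). ILK, the scaffold of the complex, had 185.7 and 239.2 CPM against 151.4 and 145.8 CPM. The groups did not overlap, but the log2 fold change of 0.52 (SE 0.186, adjusted p 0.0953 by edgeR) was not called, except without positive replicate 1 (0.71).

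PARVB was called lower, with 86 and 91 counts in positive and 397 and 498 in negative libraries. That corresponds to 2.76 and 2.32 CPM against 11.0 and 14.7 CPM. PARVB had a log2 fold change of -2.34 (SE 0.268, adjusted p 0.00047 by edgeR). PARVA (ENSDARG00000043710) was called higher, with 78.2 and 61.5 CPM against 42.8 and 46.4 CPM (log2 fold change 0.65, SE 0.184, adjusted p 0.0418 by edgeR). The PARVA call was lost without positive replicate 1 (0.49), negative replicate 1 (0.59) or negative replicate 2 (0.72), with the replicate number as a block (0.64, adjusted p 0.0553), with upper-quartile scaling (0.55) and on log2(TPM + 1) (0.60). The other PARVA ID (ENSDARG00000035629) had overlapping groups.

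Summed parvin TPM was 50.8 and 43.0 in positive and 40.9 and 41.4 in negative libraries. PARVB made up 4.78% and 4.91% of it in positive cells and 25.2% and 29.4% in negative cells. The difference between the fold changes of PARVA and PARVB was not tested. Somite and neural markers were lower in positive cells along with PARVB, as were the erythroid, pronephros, notochord and hatching gland markers given above. The neural summed level was 483.9 and 423.9 CPM in positive against 1252.0 and 1160.7 CPM in negative libraries, with 7 of 8 called. The part of any of these tissues in the PARVB value was not tested.

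**Figure D4:**
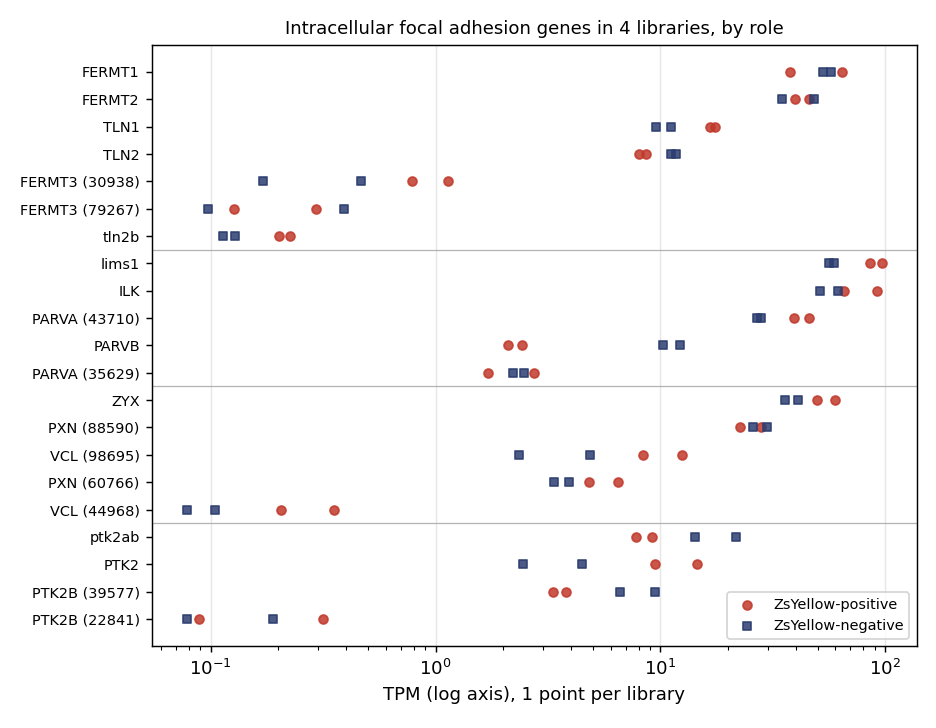
TPM of the 21 intracellular focal adhesion genes on a log axis, with 1 point per library (red circles positive, blue squares negative), in blocks for talins and kindlins, ILK, PINCH and parvin, linkers and adaptors, and kinases from top to bottom. The digits in brackets end the gene ID. PARVB lies at 2.11 and 2.43 TPM in positive and 10.3 and 12.2 TPM in negative libraries, and VCL (98695) lies on the opposite side.

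Vinculin was the linker that differed most. VCL (ENSDARG00000098695), which reinforces the bond between talin and actin under load, had 32.1 and 19.7 CPM in positive and 11.1 and 6.03 CPM in negative libraries. Replicates differed within each group, yet the groups did not overlap. The log2 fold change was 1.60 (SE 0.332, adjusted p 0.0106 by edgeR), or 1.24 and not called without negative replicate 2. The other VCL ID (ENSDARG00000044968) had the same log2 fold change of 1.60 from 21 and 42 counts against 11 and 9, with an SE of 0.533 and an adjusted p of 0.0735 by edgeR.

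Vinculin is also part of cell contacts in heart muscle. Cardiomyocyte markers were higher in positive cells, with 6 of 6 called and summed levels of 5325.8 and 5437.8 CPM against 1283.1 and 1136.7 CPM. Most of these sums was actc1a, at 3078.4 and 2998.2 CPM against 1222.9 and 1083 CPM, or 2.64 times higher. The other cardiomyocyte markers were 22.5 to 58 times higher in positive cells. The part of cardiomyocytes in the vinculin value was not tested.

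The LIM adaptor gene ZYX, whose protein gathers at strained actin fibres, had 73.5 and 85.6 CPM in positive and 53.8 and 54.2 CPM in negative libraries. At a log2 fold change of 0.56 (SE 0.170) its adjusted p of 0.0535 by edgeR just missed the threshold. It passed with the DESeq2 Wald test (0.58, DESeq2 adjusted p 0.0328), without the low-count filter (0.58), with a filter at 1 CPM (0.55) and without positive replicate 1 (0.69). The paxillin gene PXN (ENSDARG00000088590) was not called (log2 fold change -0.12, SE 0.167, adjusted p 0.688 by edgeR), nor was the second PXN ID, ENSDARG00000060766 (0.65, SE 0.256, adjusted p 0.124 by edgeR).

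Focal adhesion kinase genes differed in direction. PTK2 (ENSDARG00000100456), a focal adhesion kinase gene, had 12.9 and 8.24 CPM in positive and 4.50 and 2.25 CPM in negative libraries. The log2 fold change of PTK2 was 1.65 (SE 0.368, adjusted p 0.0151 by edgeR), or 1.24 and not called without negative replicate 2. The paralog ptk2ab had 17.7 and 18.0 CPM against 24.8 and 20.3 CPM (log2 fold change -0.34, SE 0.195, adjusted p 0.284 by edgeR). In positive cells PTK2 had means of 10.6 CPM and 12 TPM, and ptk2ab 17.8 CPM and 8.44 TPM. The transcript length behind PTK2 was thus shorter, and whether its gene model is complete was not tested. The related kinase gene PTK2B (ENSDARG00000039577), named PYK2 in mammals, had 11.9 and 9.62 CPM against 24.3 and 19.8 CPM. PTK2B had a log2 fold change of -1.04 (SE 0.217, adjusted p 0.0111 by edgeR), or -0.88 and not called without negative replicate 1. The second PTK2B ID had 6 to 30 counts and overlapping groups.

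For ptk2ab the deposited units gave different answers. Its TPM was 7.75 and 9.14 in positive and 21.7 and 14.2 in negative libraries, and limma on log2(TPM + 1) called it lower (-0.98, limma adjusted p 0.0407), as it did on log2(TPM + 0.1) (-1.06, limma adjusted p 0.034). Dividing count by TPM gives the effective transcript length behind each estimate. Relative to its own mean over the 4 libraries, that length was 1.32 and 1.24 in positive and 0.741 and 0.828 in negative libraries for ptk2ab. It was thus 1.63 times longer in positive cells. Among 11666 genes at 100 or more counts in each library, 11 had a gap this large in either direction, or 0.0943%. The ptk2ab length gap was chosen for mention after its value was seen. For ITGAV, the next of the 27 members at that depth, the length was 1.15 times longer in positive cells, with overlapping groups. The lengths of FERMT1 and FERMT2 differed within groups. They were 0.903 and 1.09 in positive and 1.1 and 0.92 in negative libraries for FERMT1. For FERMT2 they were 0.881 and 1.1 against 1.21 and 0.859.

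The 5 genes counted neither as subunits nor as focal adhesion genes lay between log2 fold changes of 0.61 and -0.21. The most abundant of them, ITGB1BP1, which binds the beta1 tail, had 24.1 and 32.8 CPM in positive and 27.3 and 25.4 CPM in negative libraries (log2 fold change 0.11, SE 0.203, adjusted p 0.766 by edgeR).

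Other genes that work at integrin adhesions were read from a list of 52 entries, which gave 52 tested IDs. Of these, 15 were called higher and 2 lower, and 35 were not called. These are shares of 28.8% higher and 3.85% lower, where all genes had 9.02% and 8.07%. The lower share rests on only 2 IDs. The median log2 fold change was 0.22. The largest increase was in the LIM protein gene CSRP1 (ENSDARG00000030980), with 42 and 23 counts against 3 and 6 (log2 fold change 2.85, SE 0.693, adjusted p 0.0217 by edgeR). KANK1 (ENSDARG00000060584), a talin-binding protein gene, followed at 37 and 23 counts against 5 and 5 (2.59, SE 0.634, adjusted p 0.0224 by edgeR). Both rest on few counts, and both calls were lost without positive replicate 1 (2.18 and 2.03), negative replicate 1 (2.41 and 2.54) or negative replicate 2 (3.48 and 2.64), that of KANK1 also on log2(TPM + 1) (0.32).

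The other CSRP1 ID (ENSDARG00000006603) was far more abundant, with 947 and 1633 counts in positive and 1188 and 1055 in negative libraries. It was not called, and its groups overlapped (log2 fold change 0.17, SE 0.198, adjusted p 0.637 by edgeR). The other KANK1 ID (ENSDARG00000060102) was called higher (1.18, SE 0.207, adjusted p 0.00467 by edgeR). The actin crosslinker gene FLNC (ENSDARG00000018820) had 3710 and 3517 counts against 999 and 568. Its log2 fold change was 2.23 (SE 0.265, adjusted p 0.000585 by edgeR), while the other FLNC ID was not called (-0.40, adjusted p 0.313 by edgeR). The genes called lower were tns2b, a tensin gene (-1.95, SE 0.245, adjusted p 0.000777 by edgeR), and the Src family kinase gene FYN (-0.98, SE 0.277, adjusted p 0.0415 by edgeR). The FYN call was lost without positive replicate 2 (-0.64), negative replicate 1 (-0.85) or negative replicate 2 (-1.08), and on log2(TPM + 1) (-0.85). Fewer genes of the list were called without negative replicate 1 or negative replicate 2, but calls also fell over all genes in these fits. A loss particular to this list was not tested.

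Matrix ligands of integrins were read from a list of 26 entries, of which 23 IDs were tested, with 6 called higher (26.1%) and 2 lower (8.70%). The share of lower calls was near the 8.07% of all genes, and the 26.1% stood beside 9.02%. The 2 fibronectin IDs went in opposite directions. FN1 ENSDARG00000019815 had 123.2 and 153.7 TPM in positive and 31.3 and 31.2 TPM in negative libraries, with a log2 fold change of 2.16 (SE 0.191, adjusted p 0.000128 by edgeR). FN1 ENSDARG00000006526 had 13 and 15.4 TPM against 66.5 and 51.9 TPM, with a log2 fold change of -2.01 (SE 0.179, adjusted p 0.000136 by edgeR). The first ID supplied 90.4% and 90.9% of the fibronectin TPM in positive and 32% and 37.6% in negative cells.

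Of 7 laminin chain IDs tested, 4 were called higher (LAMA5, LAMB2, lamc1 and LAMB1 ENSDARG00000045524) and 3 were not called. Over all genes 9.02% were called higher, and the 7 IDs were not tested as a set. Those not called were LAMA1, lama4 and the LAMB1 ID with the highest TPM of the 7 (ENSDARG00000101209), with 52.7 and 73.6 TPM in positive and 54.7 and 31.4 TPM in negative libraries (log2 fold change 0.59, SE 0.238, adjusted p 0.135 by edgeR). LAMB2 had the largest change, with 579 and 964 counts against 176 and 108 (log2 fold change 2.41, SE 0.277, adjusted p 0.000484 by edgeR). NPNT, the gene of nephronectin, a ligand of alpha8 in the mouse, had 195 and 245 counts against 68 and 48 (1.91, SE 0.293, adjusted p 0.00224 by edgeR). TGFBI was lower (-1.53, SE 0.258, adjusted p 0.00379 by edgeR). The numbers of ligand genes called also moved when 1 library was left out, as they did over all genes.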

How the data were processed

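RNA was measured in 2 ZsYellow-positive and 2 ZsYellow-negative libraries. Per the labels' protocols, Trizol and column extraction was followed by reverse transcription primed on the poly(A) tail, tagmentation and sequencing from both ends. The submitters' processing notes name Salmon 1.2.1, BWA 0.7.12-r1039 and bedtools, and the builds Zv9 and GRCz11, without roles, so no coordinates are given. The use of strand is not given in the sources used here.

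Per the file headers, the authors deposited an estimated count, made whole, and log2(TPM + 1) for each gene and library. Of the entries, 20 had a count of 0 and a TPM above 0. No further rounding was needed, and TPM was recovered from the log2 values. Totals ran from 31996733 to 40133331, and a gene's own count limits its precision. Molecular identifiers are not mentioned, so counts are not necessarily independent molecules. Symbols came from a table of Ensembl IDs and covered 23599 of them (2274 unnamed). They are largely in human style. Lists were matched by symbol, or by the name without its paralog letter, for 193 of 200 entries.

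Counts were compared with edgeR 4.0.16 in R 4.3.3 (quasi-likelihood F test, TMM factors, filterByExpr), adjusted by Benjamini-Hochberg over the 19084 genes tested. The script was tested on simulated data. The SE was obtained as |log2 fold change|/√F. CPM uses TMM-scaled library sizes. P-values measure only the spread between these libraries, which may be technical, since nothing says that replicates came from separate embryo collections. Alternatives were DESeq2 1.42.0, limma 3.58.1 on log2 TPM with 1 or 0.1 added, other scalings and filters, a replicate block and leaving out each library. The members and lists were chosen with earlier results of these data known. Values are given in full for members called with an at least 2-fold change and for the most abundant uncalled member of each role, and of the 2 further lists the 3 called genes of largest change in each direction are named. Sequences are not shown.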

Additional observations from a re-analysis of the deposited data

How the results depend on the processing

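All 20 called members kept their direction in each of 12 alternative fits, and 13 stayed called in each of the 8 fits that use 4 libraries. The counts of higher and lower calls (14 and 6, for all members and for the integrin and focal adhesion genes alone) moved more. They became 9 higher on log2(TPM + 1), 4 higher and 3 lower at an adjusted p under 0.01, and 3 to 16 higher and 3 to 8 lower when 1 library was left out. On log2(TPM + 1), 16.1% of members and 6.62% of all genes were called higher, and 8.93% and 7.37% lower. Leaving out 1 library moved the calls of all genes too. The share of all genes called at an adjusted p under 0.01 is not given here. Whether the moves at that threshold or without 1 library were particular to the members was not tested. Calls lost on log2(TPM + 0.1) were the 6 of ITGB1, TLN1, ITGA6, itga6b, FERMT3 and PARVA, and 7 were lost on log2(TPM + 1), ITGA9 being the other. The median log2 fold change of the members, 0.211, was 0.0794 on log2(TPM + 1) and 0.111 with upper-quartile scaling, and ran from 0.137 to 0.395 when 1 library was left out. Upper-quartile scaling moved the median of all genes to -0.109 and gave 12 members higher and 8 lower, so that 60% of calls were higher in place of 70%. These were 21.4% and 14.3% of members, against 7.9% and 9.86% of all genes. The calls of all genes shifted too, from 1721 higher and 1541 lower to 1508 and 1882.

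Of the other adhesion genes (15 higher, 2 lower), 8 and 1 were called on log2(TPM + 1), 7 and 1 at an adjusted p under 0.01, and 1 was lower on log2(TPM + 0.1). Leaving out 1 library also moved these numbers, as it moved those of all genes, so they are not compared. Of the matrix ligands (6 higher, 2 lower), 4 were lower with upper-quartile scaling, without the low-count filter, with the DESeq2 Wald test and with the replicate block. Apart from the stricter threshold, the causes of these moves were not tested.

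The labels say that negative cells came from the same embryos, but not that replicate numbers pair the libraries, and deviations of same-numbered libraries correlated at -0.152 over genes. With the replicate block 13 members (23.2%) were higher and 6 (10.7%) lower, against 9.23% and 8.18% of all genes. PARVA (ENSDARG00000043710) was the call lost. With the numbers crossed, an alternative chosen after seeing the data, 15 members (26.8%) were higher and 7 (12.5%) lower. Of all genes 11.4% were then higher and 9.58% lower. At counts as low as the 0 to 6 of itga2b, sampling alone limits what can be seen.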
